A study of Mus musculus with 73 samples.

Results

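The 277 regions described here were FoxA sites at which mean DNA methylation lay 15 percentage points or more below control in livers that had lacked Foxa1 and Foxa2 since development. They were drawn from 33302 sites of 400 bp in the deposited whole-genome bisulfite sequencing (WGBS) table, as those where the mean of 2 developmental null libraries minus the mean of 2 control libraries was at or below the threshold. Many sites overlap one another, and the 277 made up 257 separate regions of 25640. In the same libraries 4132 sites gained 15 points or more. None of the 277 was in the hyper-methylated list of the authors' deposited table, which follows from choosing them for a fall.

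Foxa1 and Foxa2 encode forkhead proteins that bind their sites within closed chromatin and open it to other factors, and both act in the specification of the liver and in the function of hepatocytes. Cytosine methylation at CpG dinucleotides is written by DNA methyltransferases and removed either by dilution during replication or through oxidation by Tet enzymes. Active enhancers are usually low in methylation, and many enhancers of hepatocytes lose it as the liver matures. A methylation level here is the percentage of cytosines read as methylated over a site or tile, so it averages over the cells and alleles of a library. A change in every cell and a change in the makeup of cells cannot be told apart.

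The developmental nulls were Foxa1L/L;2L/L mice with Alfp Cre, a transgene active in the developing liver, and the adult nulls were Foxa1L/L;2L/L mice injected at 8 weeks of age with AAV8 carrying Cre under the hepatocyte Tbg promoter and kept for 1 month. Controls were Foxa1L/L;2L/L mice without Cre, which per the labels were 8 weeks old, as were the developmental nulls. No virus is given for these controls, so that Cre, virus and the added month cannot be told apart in the adult comparison. WGBS was made from isolated hepatocytes in 2 libraries per group. Reduced representation bisulfite sequencing (RRBS), which reads the CpG-rich part of the genome and was deposited as 100 bp tiles, covered an age series of developmental double nulls and their controls, with 1 library per group at 20 days, 8 weeks, 4 months and 6 months. It also covered Foxa1, Foxa2 and Foxa3 triple nulls 7 and 13 days after Cre, at 9 and 12 weeks of age, against FoxA3-/- controls that carried the same L/L alleles and received GFP. Adult double nulls after partial hepatectomy were set against livers given AAV GFP and the same operation, all at 12 weeks. FoxA1L/L;FoxA2L/+ and FoxA1L/+;FoxA2L/+ livers depleted in development had 2 libraries each at 8 weeks. Whether libraries of a group came from separate animals is not given, so the spread between them may be partly technical. The tables hold no coverage, and the depth behind each level is unknown.

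The choice of members fixed their fall in the developmental null, and the WGBS values of that contrast are given as a description with no test. Developmental nulls averaged 24.6% ± 0.172 over the 277 sites and controls 50.6% ± 1.10 (SD of library means, n = 2 each). Over all 33302 sites developmental nulls averaged 25.6% ± 0.0516 and controls 21.5% ± 1.27, so the falling sites were of higher methylation than most FoxA sites in controls and near the average in nulls. The difference had a median of -20.9 points and ran down to -91.7. Control means of single sites ran from 15.1% to 98.6% with a median of 47.6%, and developmental null means from 0% to 80% with a median of 21.3%. Both developmental nulls lay below both controls at 259 of the 277 sites, against a background of 14.9% of all sites, and the libraries overlapped at the other 18.

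Most falls were partial, and a small number emptied the site. The fall was 15 to under 20 points at 119 sites, 20 to under 30 at 98, 30 to under 50 at 35 and 50 or more at 25. The developmental null mean was under 10% at 88 sites and at 50% or more at 43. At 18 sites both developmental nulls were listed at 0, and 19 sites had a mean under 20% in developmental nulls and of 60% or more in controls. The sites were not spread evenly over control levels. They made up 0.0828% of sites with a control mean under 20%, where the threshold leaves little room, 1.57% from 20 to 40%, 2.57% from 40 to 60%, 3.52% from 60 to 80% and 2.47% from 80 to 100%.

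The deepest falls were found on chromosomes 9, 7 and 11 (coordinates are mm9, counted from 1). The site at chr9:25135611-25136010 had 0% and 0% in developmental nulls, 43.6% and 0% in adult nulls, and 90.0% and 93.3% in controls. That at chr7:47085547-47085946 had 0% and 0% in developmental nulls, 90.6% and 65.4% in adult nulls, and 84.6% and 62.5% in controls. Both sites were fully unmethylated in the developmental null, but the adult nulls overlapped the controls at the second and lay below them at the first. The site at chr11:74495271-74495670 had 0% and 3.57% in developmental nulls, 45% and 45.7% in adult nulls, and 100% and 46.4% in controls. At chr11:31796411-31796810 the levels were 3.33% and 0% in developmental nulls, 96.9% and 65.6% in adult nulls, and 51.9% and 88.2% in controls. The controls differed widely from each other at both chromosome 11 sites, and both developmental nulls were near 0.

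Among the other 6 of the 10 sites named for the largest falls, adult nulls were split. At chr14:62422815-62423214 the levels were 5.26% and 5.41% in developmental nulls, 0% and 50.0% in adult nulls, and 70.0% and 75.3% in controls. At chr16:45034374-45034773 they were 11.3% and 8.57% in developmental nulls, 10.5% and 52.4% in adult nulls, and 80.8% and 70.9% in controls. One adult null library was thus at or below the developmental null level at each site and the other between the groups. At chr8:34442383-34442782 the levels were 13.7% and 29.2% in developmental nulls, 85.5% and 87.5% in adult nulls, and 85.5% and 92.1% in controls. At chr3:145436598-145436997 they were 19.1% and 10.7% in developmental nulls, 73.0% and 71.9% in adult nulls, and 79.5% and 77.6% in controls. These adult nulls stood within 10 points of the control mean. At chr7:73416099-73416498 the levels were 3.02% and 36.5% in developmental nulls, 90.3% and 76.8% in adult nulls, and 81.3% and 83.5% in controls. The remaining site, chr7:37989395-37989794, had 20.9% and 12.5% in developmental nulls, 100% and 100% in adult nulls, and 96.4% and 68.6% in controls, so that the adult nulls were the highest of the 6 libraries.

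**Figure D1:**
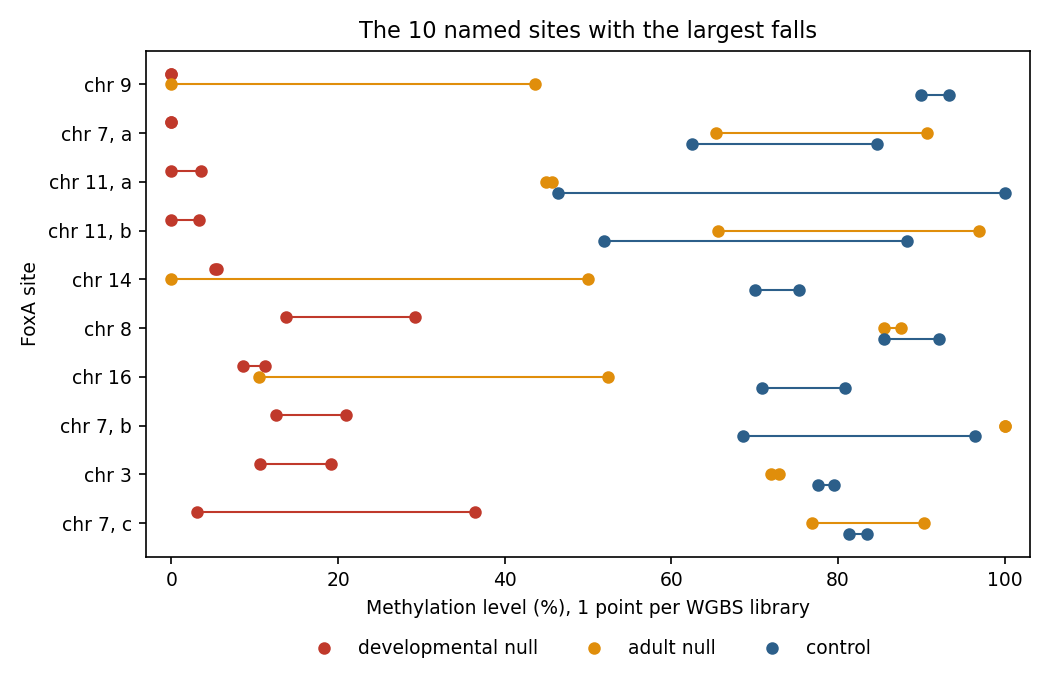
Methylation level in percent (x axis) at the 10 falling FoxA sites with the largest falls, 1 per separate region (rows, from the largest fall at the top), with 1 point per WGBS library and a line joining the libraries of a group. Both developmental nulls lie below both controls at each of these sites, as the choice requires, while adult nulls range from 0% to 100%.

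The threshold cut through a continuous range of differences. The 3 sites just inside it, on chromosomes 17, 18 and 2, had differences of -15.07, -15.04 and -15.04 points. The 3 just outside, on chromosomes 14, 19 and 3, had differences of -14.98, -14.98 and -14.91 points. One of those just inside, chr2:149427788-149428187, had 60.8% and 15% in developmental nulls against 58.8% and 47.1% in controls, so its groups overlapped.

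How far a fall in one pair of libraries was found in the other was asked by choosing sites in one replicate number and reading them in the other. The 439 sites that were 15 points or more lower in developmental null 1 than in control 1 had a median difference of -9.18 points in the replicate 2 libraries, and 316 of them were lower there. Over all sites the replicate 2 libraries had a median difference of 0.470 points, and 45.3% of sites were lower. The 641 sites chosen in the replicate 2 libraries had a median difference of -2.86 points in the replicate 1 libraries, with 386 lower, against 2.1 points and 34.0% over all sites. Of the chosen sites, 159 passed the threshold in both pairs, while 27 of the first set and 34 of the second rose by 15 points or more in the pair not used. Sites chosen in the same way for a gain kept a median of 17.5 and 21.7 points in the pair not used. The median falls read in the pair not used were smaller than these gains, and smaller than the -20.9 points of the 277 sites, for which all 4 libraries were used.

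The adult null was measured in 2 further libraries at 246 of the 277 sites; the adult table gave no site on chromosomes 1 and 2. Mean methylation at these sites was 24.7% ± 0.358 in developmental nulls, 40.9% ± 0.270 in adult nulls and 51.0% ± 1.14 in controls (n = 2 each). Over the 28654 sites of both tables it was 25.5% ± 0.0778 in developmental nulls, 20.0% ± 0.293 in adult nulls and 21.5% ± 1.28 in controls. The controls that helped to choose the sites also serve here, so the adult difference of -10.1 points at the falling sites is a description with no test. With sites chosen in the replicate 1 libraries and read against control 2, the mean adult difference was -5.13 points (379 sites), and with the replicate numbers exchanged it was -3.13 points (568 sites). Part of each is shared by all sites, as over the 28654 sites control 2 averaged 22.4% and control 1 20.6%, against 20.0% in adult nulls. The medians of these differences were -2.98 and -4.30 points for adult nulls 1 and 2 in the first case, against -2.20 and -1.69 over all sites. In the second they were -1.71 and -1.60 points, against -0.649 and -0.201 over all sites.

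**Figure D2:**
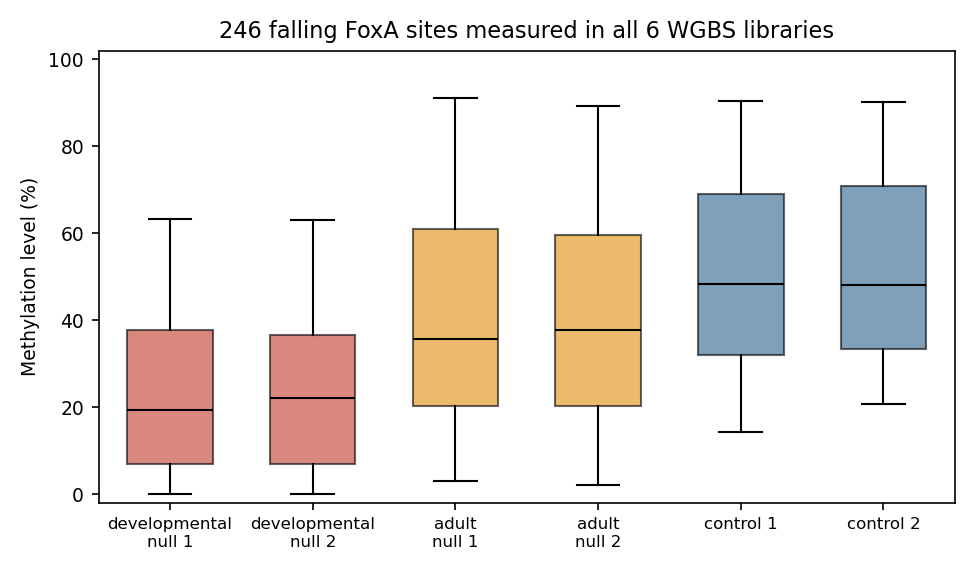
Methylation level in percent (y axis) at the 246 falling FoxA sites measured in all 6 WGBS libraries (x axis, 1 box per library). Boxes give the median and quartiles and whiskers the 5th and 95th percentiles of sites; the adult null medians of 35.8% and 37.9% lie between 19.3% and 22.2% in developmental nulls and 48.3% and 48.0% in controls.

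Single sites fell into different positions in the adult null. The adult null mean was at or below the developmental null mean at 26 sites, nearer to it than to the control mean at 88, nearer to the control mean at 80, and at or above the control mean at 52. Both adult nulls were below both controls at 127 of 246 sites, or 51.6%, with a background of 28% of all sites, from which nothing is read because the controls chose the sites. Both were above both controls at 17 sites, or 6.91%, with a background of 10.2%. The adult mean was 15 points or more below control at 76 sites, or 30.9%, with a background of 1.07%. Nothing is read from this count either, since the same controls chose the sites. Of all 33302 sites, 21740 had a control mean under 20%, which leaves little or no room for such a fall. Both adult nulls lay above both developmental nulls at 152 sites, or 61.8%, with a background of 7.63%, and here the developmental nulls chose the sites. The median adult difference was -6.09 points at the 23 measured sites that fell by 50 points or more, and -9.25 points at the 104 that fell by 15 to under 20. Other sites had median adult differences between -1.65 and 0.275 points in every range of control level, against -12.2 to -8.46 points at the falling sites. These differences also use the controls that chose the sites, so nothing is read from the contrast.

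Among the 114 sites in both tables with a control mean of 50% or more, the adult level spanned nearly the whole scale. The lowest was chr17:53622357-53622756, with 19.2% and 88.9% in developmental nulls, 3.93% and 2.17% in adult nulls, and 71.0% and 75.9% in controls. Both adult nulls were near 0 there, while the developmental nulls disagreed and one exceeded the controls. The next lowest was chr17:24484408-24484807, with 27.1% and 20.6% in developmental nulls, 10.2% and 15.8% in adult nulls, and 48.4% and 63.2% in controls. The site at chr14:63486784-63487183 had 8.93% and 3.77% in developmental nulls, 2.17% and 26.2% in adult nulls, and 55.2% and 55.4% in controls. At the other end, chr5:104408270-104408669 had 74.1% and 50.0% in developmental nulls, 94.7% and 96.0% in adult nulls, and 97.9% and 97.3% in controls. At chr6:141594809-141595208 the levels were 48.4% and 76.3% in developmental nulls, 93.8% and 94.6% in adult nulls, and 83.9% and 89.2% in controls. At both of these sites the adult nulls were nearly fully methylated and the developmental nulls lower and further apart. The third of the highest was chr7:37989395-37989794, described above.

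Some sites differed widely between libraries of one group. The developmental null and control libraries chose the sites, and most FoxA sites are near 0, so the gaps are given as a description. A gap of more than 30 points between the 2 libraries was found at 13 of 246 sites in developmental nulls, 21 in adult nulls and 11 in controls, that is at 5.28%, 8.54% and 4.47%. Over all sites these shares were 0.269%, 0.314% and 0.202%, and at the sites that gained 15 points or more they were 0.832%, 0.889% and 0.717%. The widest adult gaps included chr16:35692995-35693394, with 50.0% and 78.1% in developmental nulls, 22.6% and 90.3% in adult nulls, and 83.8% and 90.8% in controls. At chr6:139923277-139923676 the levels were 18.4% and 19.8% in developmental nulls, 76.2% and 15.9% in adult nulls, and 83.5% and 74.9% in controls. One adult null resembled the controls and the other the developmental nulls at this second site. Sites near the ends of the scale have less room to differ; among sites with a control mean of 40 to 60%, the median gap between adult nulls was 6.61 points at falling sites and 5.81 at others. Between controls it was 5.56 points at falling sites and 6.24 at others. In every other range of control level, both median gaps were wider at falling sites. From 60 to 80% they were 9.07 points against 5.63 between adult nulls and 7.14 against 5.68 between controls. The part of read depth in the wide gaps was not tested.

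Differences were also read by distance from the falling sites, as a description, since sites outside the set had by the rule not fallen by 15 points. Among FoxA sites outside the set whose centre lay 1 to 200 bp from that of a falling site, which therefore share bases with it, the median developmental null minus control difference was -7.80 points (34 sites). It was -0.0938 points at 200 to 400 bp (10 sites) and 0.528 points at 400 to 1000 bp (34 sites), against 1.12 points over all sites outside the set. Sites gaining 15 points or more were found within 2000 bp of 8 falling sites, or 2.89%, against 5.20% of all sites that did not gain. In RRBS tiles of the age series, averaged over ages, the median difference was -9.51 points within 200 bp of a falling site's centre (15 tiles), -2.10 points at 200 to 500 bp (14 tiles, quartiles -10.9 and 3.47) and 0.203 points at 500 to 1000 bp (29 tiles). No difference between distances was tested.

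**Figure D3:**
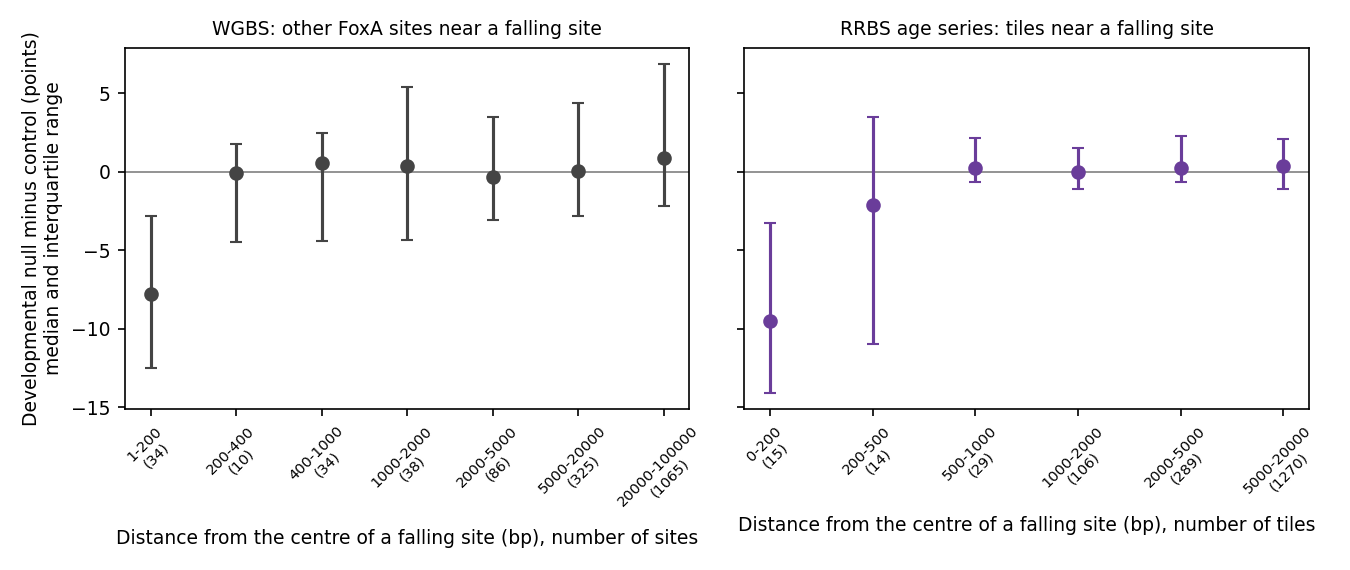
Developmental null minus control difference in percentage points (y axis, median with the interquartile range) by distance from the centre of the nearest falling site in bp (x axis, number of sites or tiles in parentheses), for other FoxA sites in WGBS at the left and RRBS tiles of the age series at the right. Medians are below 0 in the nearest class of each, at -7.80 and -9.51 points, and near 0 beyond 500 bp.

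The share of falling sites among FoxA sites differed between chromosomes, which was not tested. Falling sites made up 1.64% of the FoxA sites of chromosome 8 (31 sites in 25 separate regions), 1.54% of chromosome 17 (18), 1.5% of chromosome 7 (25) and 1.34% of chromosome 12 (19), down to 0.306% of chromosome 10 (6). Joined where the next lay within 1 Mb, they formed 181 groups, of which 127 were single sites and 9 held 4 or more. The grouping was not compared with that of FoxA sites in general. Each of the 4 FoxA sites in chr7:37935545-37990285, a stretch of 54741 bp, was a falling site. In the longer runs the other sites, which by the rule had not fallen by 15 points, had a median difference of 0.432 points at 32 sites of the chromosome 12 run, -0.318 points at 42 of the chromosome 17 run and -1.43 points at 61 of the first chromosome 8 run, where 37 were below 0. Over all sites outside the set the median was 1.12 points and 39.3% were below 0. The run at chr4:60153368-61506548 stood apart, as each of its 6 other sites was lower in developmental nulls, with a median of -6.68 points.

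The adult null differed from run to run. In the run at chr12:52218500-53599997 the 6 falling sites had means of 21.5% in developmental nulls, 21.0% in adult nulls and 47.5% in controls, and the adult mean was nearer to the developmental null than to the control at 6 of 6. At one of them, chr12:53244498-53244897, the levels were 14.3% and 0% in developmental nulls, 0% and 0% in adult nulls, and 48.1% and 40.9% in controls. The run at chr17:24310329-25309026 had 19.0% in developmental nulls, 18.3% in adult nulls and 39.7% in controls, with 5 of 5 sites nearer to the developmental null. Adult nulls were thus as low as developmental nulls in both runs. At chr5:125289950-125617917, where 3 of the 4 sites overlap, the means were 20.9% in developmental nulls, 35.6% in adult nulls and 67.6% in controls, again with 4 of 4 nearer to the developmental null.

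The runs on chromosomes 7 and 8 had adult levels near those of controls. At chr7:37935545-38741420 the 6 falling sites had means of 17.4% in developmental nulls, 62.8% in adult nulls and 56.0% in controls. At chr8:34442383-36516305 the 9 sites had 8.98% in developmental nulls, 33.2% in adult nulls and 36.8% in controls, and at chr8:37527434-37895359 the 4 sites had 19.3% in developmental nulls, 45.4% in adult nulls and 46.1% in controls. The adult mean was nearer to the control at each of these 19 sites, and at 3 of 4 sites of the third chromosome 8 run, chr8:41734669-42319760. The chromosome 4 run was divided, with 3 of 6. These runs were picked out by the position of the sites, and sites of a run are not independent of one another.

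**Figure D4:**
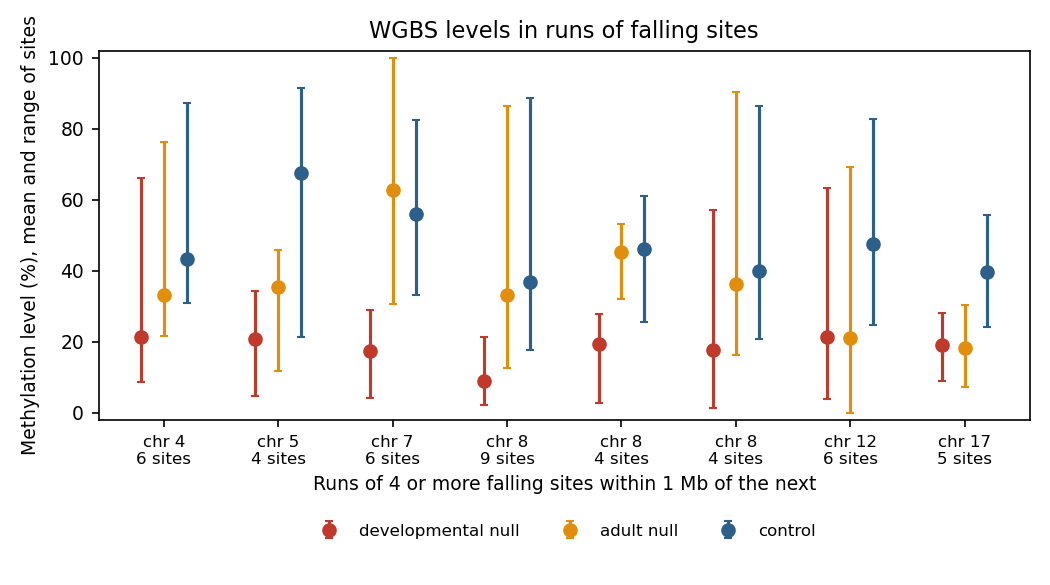
Methylation level in percent (y axis, mean of the sites with bars from the lowest to the highest site) in developmental null, adult null and control WGBS libraries for the 8 runs of 4 or more falling sites that the adult table covers (x axis, in genome order). Adult null means are close to developmental null means in the chromosome 12 and 17 runs (21.0% and 18.3%) and to control means in the chromosome 7 run and the 3 chromosome 8 runs.

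RRBS libraries did not take part in the choice of sites and so allow a test. Of the deposited tiles, 36 had their middle in a falling site and lay in 21 of the 277 sites; 15 of them, in 8 sites, had a value in each of the 8 age series libraries. No member tile passed the limma threshold (adjusted p under 0.05 over 369462 tiles) in either direction, with a background of 0.0625% of tiles called lower and 0.176% called higher; 2 tiles were lower and 0 higher at an unadjusted p under 0.05, with a background of 3.18% lower and 5.59% higher. With nulls and controls matched by age in a block, no member tile was called either (smallest limma adjusted p = 0.148), with a background of 0.276% lower and 0.582% higher. In that fit 5 of the 15 tiles were lower and 0 higher at an unadjusted limma p under 0.05. The share over all tiles was not counted for this fit, so nothing is read from that count. The median difference over the 15 tiles was -9.51 points, against 0.280 points over all tiles and 0.194 points over 4763 tiles in FoxA sites. Of the 15 tiles 12 were below 0, against 44.0% of all tiles and 45.1% of those in FoxA sites. Tiles of a site are not independent of one another. Developmental nulls averaged 28.0% ± 18.9 over the 15 tiles and controls 34.9% ± 16.1 (n = 4 each), where the SD is also over ages and is larger than the difference. No tile had all 4 nulls below all 4 controls, with a background of 0.978%, and none had all nulls above all controls, with a background of 1.93%. Leaving out the 20-day control alone gave a median of -1.18 points, with the high 20-day null left unmatched. Without both 20-day libraries the median was -11.5 points, with means of 18.8% in developmental nulls and 28.0% in controls, and without both libraries of another age it was -10.7 to -5.43 points, the smallest without the 8-week pair.

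The level of these tiles differed between the libraries of different ages, with 1 library per group and age and no test of age. Averaged over the 15 tiles, the 20-day developmental null had 55.8%, the 8-week one 14.5%, the 4-month one 18.4% and the 6-month one 23.3%. The 20-day control had 55.8%, the 8-week control 36.9%, the 4-month control 29.6% and the 6-month control 17.4%. The groups thus had the same mean at 20 days, but single tiles differed. At that age 8 of the 15 tiles were lower in the developmental null, with a median difference of -4.53 points. Developmental nulls differed from controls by -22.4 points at 8 weeks, -11.2 points at 4 months and 5.94 points at 6 months. At 6 months 9 of the 15 tiles were lower, and the higher mean came with 2 tiles of 1 chromosome 6 site. These 2 tiles were also higher in the developmental null at 20 days, at 83.3% and 91.7% against 49.0% and 75.8% in the control. At 8 weeks, the age of the WGBS mice, each of the 16 tiles measured in both libraries was lower in the developmental null, in 8 of 8 sites, and 10 were lower by 15 points or more. Over all FoxA site tiles at that age, 44.6% were lower and 2.56% were lower by 15 points or more. Because most FoxA tiles are near 0 in controls, the tiles with a control level of 20 to 80% are the closer comparison: 41.1% of 496 such tiles were lower and 19.4% by 15 points or more, against 14 and 10 of the 14 such tiles in falling sites.

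At the other ages lower tiles were counted in the same way. At 20 days 9 of 17 tiles were lower, 2 of them by 15 points or more, against 44.3% and 4.63% of all FoxA site tiles; with a control level of 20 to 80%, 6 of 10 were lower and 1 by 15 points or more, against 53.6% and 23.3%. At 4 months 15 of 22 were lower and 9 by 15 points or more, against 42% and 2.69%; with a control level of 20 to 80%, 11 of 12 were lower and 8 by 15 points or more, against 43.2% and 19.1%. At 6 months 10 of 16 were lower and 2 by 15 points or more, against 37.5% and 1.75%; with a control level of 20 to 80%, 4 of 4 were lower and 2 by 15 points or more, against 30.8% and 16.1%. The other 12 tiles of this age had controls outside that range. With 1 library per group and age, no age was tested on its own, and age and library cannot be told apart. Whether the 8-week RRBS libraries came from the same mice as the WGBS libraries is not given.

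**Figure D5:**
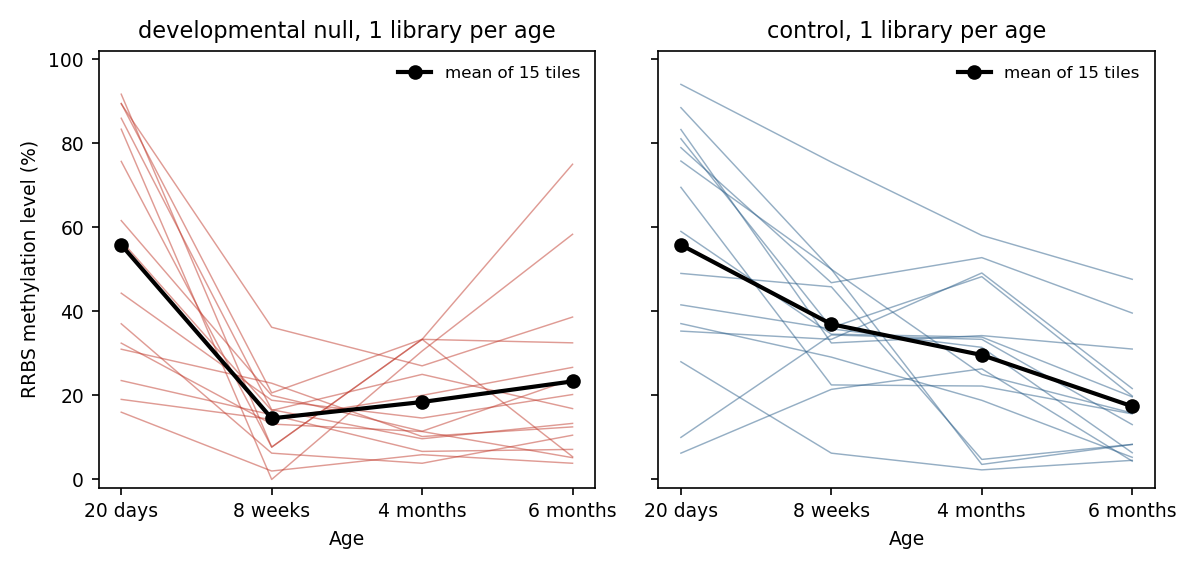
RRBS methylation level in percent (y axis) of the 15 tiles in falling sites that were measured in each of the 8 libraries, by age (x axis, not to scale), in developmental nulls at the left and controls at the right; thin lines are tiles and the black line is their mean. The means start at 55.8% in both groups, where the median tile difference is -4.53 points. They are 14.5% in developmental nulls and 36.9% in controls at 8 weeks.

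Single tiles followed different courses. In the falling site chr7:139811694-139812093, the tile at 139811801 to 139811900 had 37.0%, 6.25%, 3.85% and 10.5% in developmental nulls at 20 days, 8 weeks, 4 months and 6 months, and 35.3%, 33.3%, 49.1% and 21.6% in controls at the same ages. Its difference was -20.4 points (SE 8.21, limma adjusted p = 0.440), and the groups were alike only at 20 days. The tile with the largest difference, at 90944901 to 90945000 in the chromosome 5 site 90944594 to 90944993, had 89.5%, 20.6%, 33.3% and 32.5% in developmental nulls and 94.0%, 75.5%, 58.1% and 47.6% in controls. This tile was lower in developmental nulls at each age, by -24.8 points on average (SE 11.5, limma adjusted p = 0.546).

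The site chr5:110860558-110860957 held 4 tiles. Their mean was 62.2%, 18.0%, 15.2% and 18.6% in developmental nulls from 20 days to 6 months, and 73.2%, 31.4%, 34.6% and 21.5% in controls. Both groups were highest at 20 days and developmental nulls were lower at each age. The chromosome 13 tile at 102738201 to 102738300 had 75.7%, 7.69%, 33.3% and 5.41% in developmental nulls and 88.5%, 50.0%, 25.0% and 15.8% in controls, lower in developmental nulls at every age but 4 months. The differences of the named falls outside chromosomes 5 and 7 were -14.3 points for this tile, -9.64 points for the chromosome 6 tile at 135963801 to 135963900 and -9.51 points for the chromosome 8 tile at 35681301 to 35681400.

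In the site chr6:24298103-24298502, 2 of 3 tiles were higher in developmental nulls outside 8 weeks. Its tile at 24298401 to 24298500 had 91.7%, 7.69%, 33.3% and 75% in developmental nulls and 75.8%, 50.0%, 3.57% and 8.33% in controls. The neighbouring tile at 24298301 to 24298400 had 83.3%, 0%, 30.6% and 58.3% in developmental nulls and 49.0%, 45.8%, 4.76% and 8.33% in controls. Both were lower in the developmental null at 8 weeks and higher at the other 3 ages, and their mean differences of 17.5 and 16.1 points did not pass the test (limma adjusted p = 0.882 and 0.841). The third tile, at 24298201 to 24298300, had 16.0%, 2.00%, 5.88% and 3.85% in developmental nulls and 28.0%, 6.25%, 2.27% and 4.55% in controls, a difference of -3.33 points. It was lower in developmental nulls at each age but 4 months. The WGBS difference of this site, at 8 weeks, was -27.9 points. In the chromosome 8 site, the tile at 35681201 to 35681300 had 19.0%, 14.3%, 20.0% and 26.7% in developmental nulls and 6.25%, 21.4%, 26.3% and 4.35% in controls, a difference of 5.41 points.

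Averaged over these tiles, livers that kept 1 Foxa2 allele, or 1 allele of each gene, lay between the single 8-week developmental null and control libraries. At 8 weeks the 15 tiles averaged 20.1% and 34.6% in FoxA1L/L;FoxA2L/+ livers, and 19.2% and 24.3% in FoxA1L/+;FoxA2L/+ livers. The developmental null of that age had 14.5% and the control 36.9%. Single tiles lay outside that range in both directions. The tile chr6:135963801-135963900 had 3.92% and 14.3% in FoxA1L/+;FoxA2L/+ livers, against 22.9% in the developmental null. The tile chr7:139811701-139811800 had 66.7% in 1 FoxA1L/L;FoxA2L/+ library, against 46.8% in the control. The controls of the day 7 and day 13 comparisons, which also lacked Foxa3, averaged 24.7% and 25.9% at the same tiles, within the range of these 4 libraries. No test was made on these groups.

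Acute loss in the adult gave no called tile. In triple nulls at day 7, the 19 measured tiles averaged 28.4% ± 3.22 (n = 3), against 29.6% ± 2.44 in controls that also lacked Foxa3 (n = 3), with a median difference of -0.717 points. The background was 0.00291% of tiles called lower and 0.00125% called higher by limma. At day 13 the 16 tiles averaged 20.6% ± 1.28 in triple nulls and 26.8% ± 5.44 in controls (n = 2 each), with a median difference of -3.70 points and a background of 0.00475% lower and 0.00271% higher. All nulls lay below all controls at 3 of the 16 tiles on day 13, with a background of 15.6%, and at 1 of 19 tiles on day 7, with a background of 4.55%. They lay above all controls at 1 of 16 tiles on day 13, with a background of 12.9%, and at 0 of 19 on day 7, with a background of 5.11%. After partial hepatectomy the 19 tiles averaged 34.9% ± 4.45 in adult double nulls (n = 3) and 34.8% ± 2.99 in controls (n = 2), with a median difference of -1.70 points and a background of 0.000828% lower and 0.00104% higher. All nulls lay below all controls at 0 of these 19 tiles and above them at 1, with backgrounds of 9% and 8.69%. None of the tiles was called in any of these 3 comparisons, and at an unadjusted p under 0.05 there was 1 lower tile at day 13 (background 2.59%) and 0 at day 7 and after hepatectomy (backgrounds 1.8% and 2.3%). There were 0 higher tiles in each, with backgrounds of 2.3% at day 7, 2.09% at day 13 and 2.37% after hepatectomy. The limma spread is shared with all other RRBS libraries, including the age series, whose libraries of a group differ in age. At the day 7 tile chr5:110860801-110860900, for example, the SE was 15.6 points, while the SDs were 3.65 in nulls and 6.00 in controls. Absence of a change is therefore not read from these low counts.

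The 1 tile that was lower at day 13 at an unadjusted limma p under 0.05 lay in the chromosome 8 site 35681067 to 35681466. Its mean was 18.8% in day 13 triple nulls and 40.2% in their controls, a difference of -21.5 points (SE 8.32, limma adjusted p = 0.953). The same tile had 24.6% in nulls against 19.5% in controls at day 7, and 19.5% against 21.0% after hepatectomy. The adjacent tile of the site had 30.2% in nulls against 21.6% in controls at day 13. It had 23.7% against 28.1% at day 7 and 21.3% against 17.4% after hepatectomy. The median difference at day 13 also leaned on single libraries, from -8.04 to -0.129 points as each was left out in turn.

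HNF6, a one-cut homeobox factor of hepatocytes and bile duct cells, was read from peak lists called per ChIP library. A peak in any of 7 lists overlapped 25 falling sites, or 9.03%, against 10.8% of all FoxA sites. Regions with a peak in each of 3 control lists overlapped 3, or 1.08%, against 2.03% of all sites. By list, the falling sites with a peak numbered 2 and 0 in developmental nulls (0.722% and 0%, against 1.68% and 0.949% of all FoxA sites). They numbered 12 and 23 in adult nulls (4.33% and 8.30%, against 6.17% and 8.56%) and 20, 16 and 3 in controls (7.22%, 5.78% and 1.08%, against 8.06%, 6.64% and 1.92%). The share of falling sites was below that of all sites in each list, narrowly in some, and no difference was tested. The 4132 gaining sites had lower shares still in controls (3.97%, 2.95% and 0.774%) and adult nulls (1.82% and 2.95%). In developmental nulls they had 0.339% and 0.145%, the second above the 0% of falling sites. Shares were not compared at matched control levels, and most FoxA sites are near 0 in controls, so nothing is read from these contrasts. Developmental null and control peaks came from one version of the peak caller and adult null peaks from another, so that genotype and caller cannot be told apart for the adult lists, and the control lists alone spanned nearly the whole range.

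The 3 sites at reproducible HNF6 regions were among the smaller falls. The site at chr5:87339858-87340257 had 0% and 0% in developmental nulls, 4.55% and 2.86% in adult nulls, and 14.3% and 16.0% in controls. At chr11:109872131-109872530 the levels were 3.08% and 2.00% in developmental nulls, 2.41% and 6.67% in adult nulls, and 9.33% and 26.9% in controls. These 2 sites were of low methylation in each group, with adult nulls below controls. The third, chr17:53595122-53595521, had 83.3% and 76.2% in developmental nulls, 75.6% and 84.0% in adult nulls, and 100% and 97.2% in controls, and was the falling site with the highest control level.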

How the data were processed

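Methylation at FoxA sites and RRBS tiles was deposited by the authors as a fraction between 0 and 1, multiplied here by 100. Per the submitters' processing notes, Trim Galore 0.3.3 and BSMAP 2.74 were used with the mm9 build. The sources used here do not give how values were summarised per site or tile, nor the coverage behind them. In the adult table, 1 column with a developmental null header was equal to control 2 at 28654 of 28654 common sites (tolerance 0.0001 points) and served for that check only. The 8 columns of authors' RRBS averages were not used. HNF6 peaks were called per library against input, per the file headers; the fold enrichment ratio that the authors deposited for each peak was not used, only its position, with any shared base counted as overlap.

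RRBS contrasts were fitted with limma 3.58.1 in R 4.3.3 on percent, with a variance trend, the spread of all 27 libraries, tiles measured in each library of a contrast, and Benjamini-Hochberg adjustment at 0.05 over all tiles. The fit was also run on simulated data with a common spread per tile and no age differences. That run does not test the sharing of the spread over ages. WGBS values were summarised in Python 3.11.15 with pandas 2.3.3. The members, lists and rules were chosen with earlier results of these data known. Named sites were the 10 largest falls with groups apart, sites at the threshold and at reproducible HNF6 regions (5 were allowed and 3 exist), the 3 lowest and highest adult levels, and the 8 lowest and 4 highest age series tiles. Alternatives were a logit scale, spread from 2 groups, a replicate block, left-out libraries and age pairs, a 20-point threshold and stricter overlap. The reference tables held no mm9 genome, so no sequence or gene name is given for a site. HNF4A and H3K27ac libraries were not analysed here.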

Additional observations from a re-analysis of the deposited data

Results flagged for a closer look

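At the 15 RRBS tiles measured in each age series library, the developmental null minus control difference had opposite signs at 2 ages, at -22.4 points at 8 weeks and 5.94 points at 6 months. There was 1 library per group and age, and the difference between ages was not tested.

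A sample stood far from the other 3 of its group in 3 of the 26 sets of 4 libraries examined. The rule has a chance rate of about 1 in 20 for 4 like libraries. That rate does not apply here, as the libraries of a set differ in age and the sets share libraries. All 3 far samples lay in the chromosome 5 site 110860558 to 110860957 and were 20-day libraries. The tile at 110860801 to 110860900 had 85.9% in the 20-day developmental null and 83.3% in the 20-day control. The tile at 110860701 to 110860800 had 69.5% in the 20-day control.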

How the results depend on the processing

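Of 162 values recomputed under alternatives, 7 moved and 155 did not. Differences were held against the SD between library means, or between the 2 medians for the replicate split, and HNF6 shares against the exact binomial interval. Many of the 155 are counts of called tiles, which were compared as counts. Medians under the logit scale and the spread from 2 groups are taken on percent and could not move. With wide SDs, 155 also includes medians that changed sign. The count of called tiles in falling sites stayed at 0 in each RRBS contrast under each alternative run. Leaving out single libraries gave median differences of -14.0 to -1.18 points in the age series (-11.5 to -5.43 with age pairs left out, an alternative chosen after seeing the data), -3.31 to 0.752 at day 7, -8.04 to -0.129 at day 13 and -3.61 to 2.14 after hepatectomy, and adult WGBS differences of -10.9 to -9.34 points. A threshold of 20 points moved the median fall read in the unused pair to -16.9 points (213 sites, chosen in replicate 1) and -10.3 (291 sites, chosen in replicate 2). The adult difference of -10.1 points was -5.13 and -3.13 with split replicates, chosen after seeing the data. The share at reproducible HNF6 regions was 1.08%, 0% with falls of 20 points or more, and 5.78% with regions in at least 2 lists. The causes were not tested.

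Age series nulls and controls are matched by age per the labels; same-age correlations were 0.366, 0.060, 0.109 and 0.149 from 20 days to 6 months, and 3 of 4 passed 0.1. Other replicate numbers did not pair samples. With a replicate block, 0 tiles in falling sites were called in any contrast, and the age series median was -9.51 points; 1018 tiles fell and 2149 rose over the whole table, against 231 and 650 without it. The hepatectomy median was -3.61 points with a block.

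Unknown coverage limits each level, most of all for values of exactly 0 or 100. RRBS reached 21 of the 277 sites, and 2 libraries per WGBS group give no test that the choice of sites had not used.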
